A study of Macaca mulatta with 6 samples.

Results

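Voltage-gated sodium channels, voltage-gated potassium channels and hyperpolarization-activated (HCN) channels, with their auxiliary subunits, were examined as 1 group of genes in monkey retinas after irradiation of the optic nerve. The group was defined by gene symbol, from a list of 31 genes. Of these, 25 were represented on the array by a probe set with that symbol, out of 14132 genes in all, and they had 45 probe sets together. SCN2B, SCN4B, KCNA6, KCNC2, HCN2 and HCN4 were not analysed here. Where a gene had several probe sets, the one with the highest mean over all arrays, its brightest probe set, was used to describe it.

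The study used 3 male rhesus macaques aged 8 to 10 years, with 1 intraorbital optic nerve of each animal treated by gamma knife surgery at a prescribed dose of 15 Gy. The retina on that side is called treated, and the retina of the untreated nerve of the same animal served as control, so both groups came from anesthetized animals that had been through the procedure. Both retinas were removed 24 h later and dissected without the retinal pigment epithelium, and RNA of the temporal side was hybridized to 1 Affymetrix Rhesus Macaque Genome Array per retina, giving 3 treated and 3 control arrays. The control retina is not an unexposed one, since the contralateral eye also lay within the planned low-dose field. The eyeball on the treated side reached a higher dose than the contralateral eyeball, so the treated retina was itself exposed. The retinas of a pair therefore differ in their own dose as well as in the treatment of the nerve. The parts of direct exposure and of nerve injury in any difference were not tested.

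Sodium channels open on depolarization and carry the rising phase of the action potential, which in the retina is the output signal of the ganglion cells and is also fired by some amacrine cells. Potassium channels repolarize the membrane and set firing rate, and HCN channels open on hyperpolarization and shape the light responses of photoreceptors and bipolar cells. A functional channel usually contains pore-forming alpha subunits together with beta subunits or binding proteins that set its gating and its delivery to the membrane.

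The values are log2 MAS5 signals, in which a difference of 1 is a doubling. Probes differ in how strongly they hybridize, so a brighter probe set does not mean a more abundant transcript, and differences are given between retinas for the same probe set. The mean signal of the 25 brightest probe sets lay between 4.95 for KCND2 and 13.26 for KCNV2. In 18 of the 25 it was above 6.69, the median over all 52024 probe sets, and KCND2 alone was under 5, where these signals scatter widely. The treated array of replicate 2 had the most probe sets under 5, at 29.7%, against 22.6% to 25.9% on the other 5 arrays. Precision is limited by the number of arrays, 3 per group, among other sources of spread. The label of retina was checked with rod marker genes, of which 8 were measured, with mean log2 signals from 13.94 to 15.43.

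None of the 25 channel genes differed between treated and control retinas after adjustment over all probe sets (limma, paired by replicate number, smallest adjusted p = 0.449). The replicate number of the labels was taken as the animal. Of all probe sets 0.111% passed, and of named genes (1 probe set per gene) 0.212%. At an unadjusted p under 0.05, 1 gene was higher (SCN1A) and 1 was lower (HCN3), against 2.97% and 3.77% of all probe sets and 5.02% and 3.01% of named genes. Of all probe sets at that threshold 44.0% were higher, and 61.7% were with each array centred on its median. The methods' t-test gave 2 of 25 at that threshold (HCN3 and KCNQ3), with 5.56% of all probe sets and 7.05% of named genes, and 0 after Benjamini-Hochberg adjustment. The log2 fold change was below 0 in 15 genes and above 0 in 10, where 54.6% of all probe sets and 44.5% of named genes were below 0. With each array centred on its median, which shifts all genes alike, 15 of the 25 were above 0, and with quantile normalization 11 were. The median log2 fold change was −0.066, beside −0.038 over all probe sets and 0.032 over 1 probe set per gene, and it was 0.030, −0.11 and 0.0075 in the pairs of replicates 1, 2 and 3. With each array centred on its median, the median of the channel genes was 0.031 and that of all probe sets was 0.059.

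**Figure D1:**
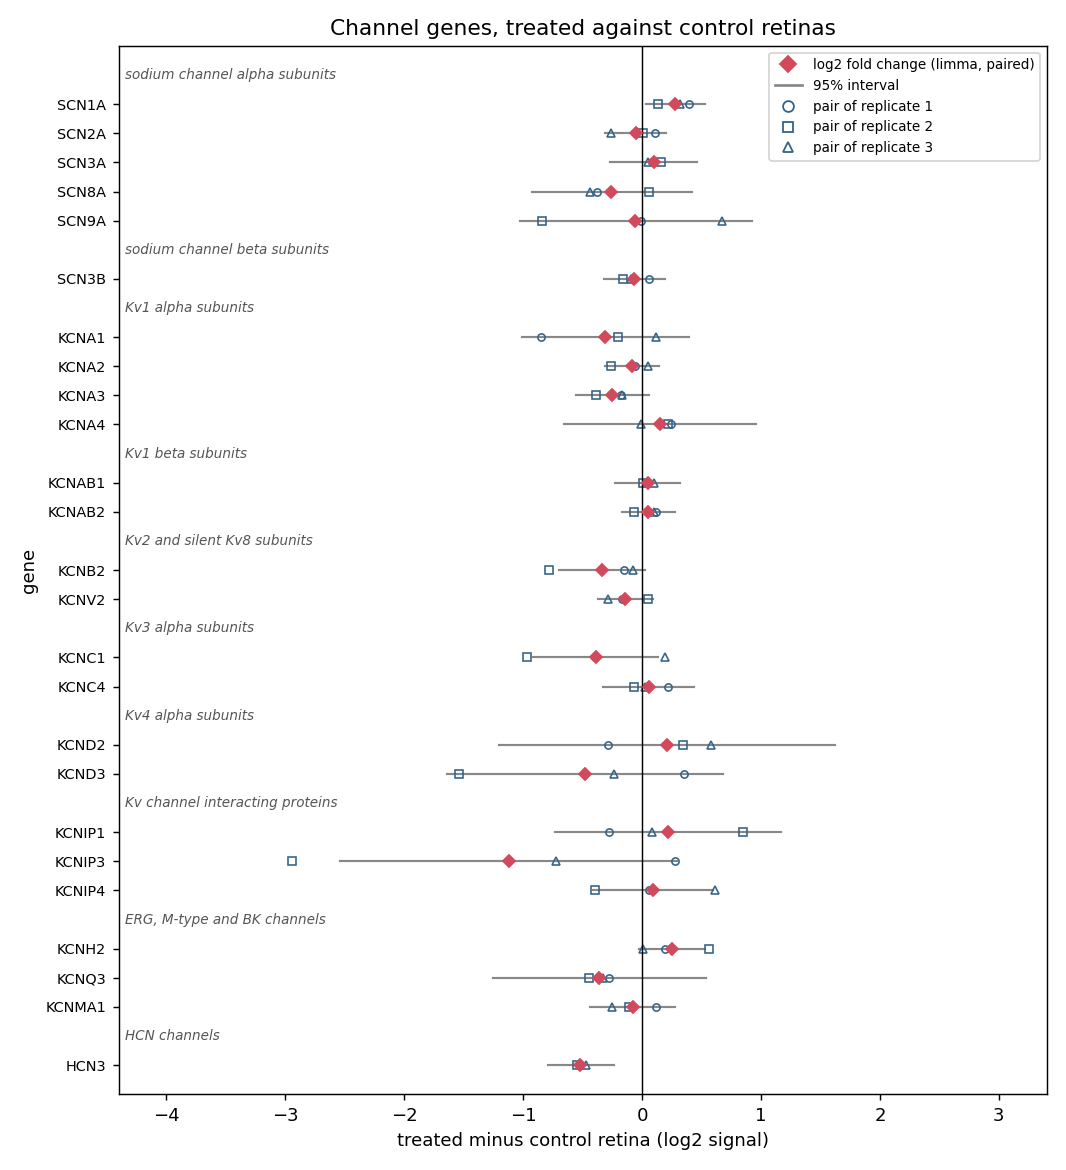
The x axis gives the treated minus control difference in log2 signal for each of the 25 channel genes (y axis), grouped by role. Red diamonds are the paired limma estimates with 95% intervals, and open symbols are the 3 pairs. The intervals of HCN3 and SCN1A lie to 1 side of 0, and the widest intervals belong to KCND2, KCNIP3 and KCND3.

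In 17 of the 25 genes the 3 pairs disagreed in sign. The treated retina was higher in 3 of 3 pairs for 4 genes (SCN1A, SCN3A, KCNAB1 and KCNH2) and lower in 3 of 3 pairs for 4 genes (KCNA3, KCNB2, KCNQ3 and HCN3), while 13.0% and 16.1% of all probe sets and 19.3% and 13.6% of named genes did so. In 0 of 25 genes did the 3 treated values lie wholly above or wholly below the 3 control values, where 3.11% and 3.53% of all probe sets and 4.30% and 2.70% of named genes did. The 95% interval lay within 1 of 0 on the log2 scale for 18 of 25 genes (45.6% of all probe sets and 65.0% of named genes) and within 0.5 for 9. The exceptions at the wider bound were SCN9A, KCNA1, KCND2, KCND3, KCNIP1, KCNIP3 and KCNQ3.

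**Figure D2:**
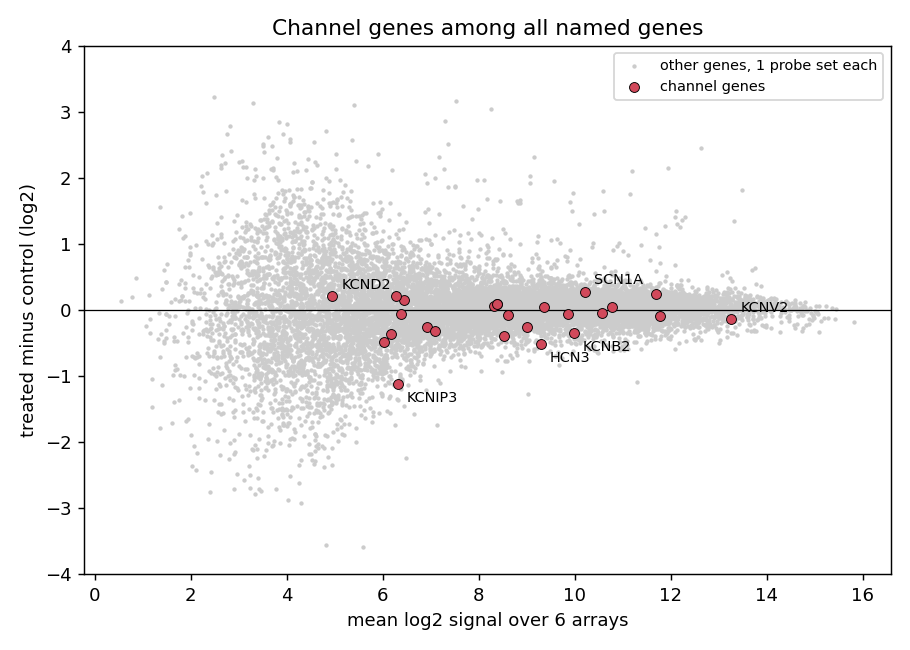
Each point is a gene by its brightest probe set, with the mean log2 signal over 6 arrays on the x axis and the treated minus control difference (log2) on the y axis. The 25 channel genes in red lie within the cloud of the other named genes, from −1.12 for KCNIP3 to 0.28 for SCN1A, and the spread of all genes widens at low signal.

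HCN3 was the single HCN channel measured and the member with the smallest p. HCN channels pass a mixed cation current that opens when the membrane hyperpolarizes. In control retinas, in the order of replicates 1, 2 and 3 that is kept below, the log2 signal of HCN3 was 9.02, 9.84 and 9.80, and in treated retinas it was 8.49, 9.28 and 9.33. The treated retina was the lower one in each animal, with differences of −0.52, −0.55 and −0.47, but the groups overlapped, because both retinas of replicate 1 lay below all the others. The group means were 9.55 ± 0.46 (SD, n = 3) in control and 9.03 ± 0.47 (SD, n = 3) in treated retinas. The log2 fold change was −0.52 (SE 0.12, 95% interval −0.79 to −0.24), a fold of 0.700, with an unadjusted p = 0.00291 and an adjusted p = 0.449 from limma. Without the pairing the same difference had an unadjusted p = 0.145. It stayed between −0.54 and −0.50 when each replicate was left out in turn, and stood at −0.42 with each array centred on its median. HCN3 has 1 probe set, so no second probe set bears on it. Rod marker genes lay below 0 in 8 of 8, NR2E3 by less than 0.001, where 44.5% of named genes were below 0. The lowest of them was −0.34, and the median log2 fold change was −0.17. Their summed linear signal was 237715 to 274515 in control and 203749 to 253320 in treated retinas, and none of the 8 passed after adjustment. None of these rod genes was near 0 on any array. Cone markers lay below 0 in 5 of 8, with a median of −0.041. Bipolar cell markers lay above 0 in 6 of 8, with a median of 0.098. Müller glia markers lay below 0 in 4 of 8, and ran from −0.54 to 0.58. The part of any of these markers in the HCN3 difference was not tested. In whole retina, fewer cells of a type and less RNA per cell cannot be told apart.

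The alpha subunits of sodium channels form the pore, and those measured here were SCN1A, SCN2A and SCN3A, which are channels of central neurons, SCN8A, the main sodium channel of mature axon initial segments and nodes, and SCN9A, known best from peripheral sensory neurons. SCN1A was 10.30, 10.10 and 9.84 in control and 10.69, 10.23 and 10.17 in treated retinas. All 3 treated retinas were above their own control retina, by 0.39, 0.13 and 0.32, and the groups overlapped. The log2 fold change was 0.28 (SE 0.11, 95% interval 0.03 to 0.53), with an unadjusted p = 0.0312 and an adjusted p = 0.730 from limma. Its second and dimmer probe set stood at 0.54 (SE 0.33, adjusted p = 0.754). The unadjusted p of the brightest probe set was 0.0711 by the methods' t-test, 0.233 without replicate 1 and 0.111 without replicate 3, each above 0.05. Beside it, retinal ganglion cell markers were above 0 in 11 of 11 genes measured, where 44.5% of named genes were below 0. Their summed linear signal was 35186 to 41366 in control and 42363 to 56829 in treated retinas. Of those 11, 7 were higher at an unadjusted p under 0.05 in limma, beside 5.02% of named genes. None passed after adjustment (smallest adjusted p = 0.0638), and none was near 0 on any array. PRPH had the largest log2 fold change of them, 1.30, and the others ran from 0.038 to 0.41. The separation of the summed signals rested in part on PRPH. Its log2 signal was 11.48, 11.36 and 11.61 in control and 12.84, 13.14 and 12.36 in treated retinas. In each of the other ganglion cell markers the groups overlapped, while treated values lay wholly above control values in 4.30% of named genes. The part of the ganglion cell markers in the value of SCN1A was not tested.

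Of the other sodium channel alpha subunits, SCN3A lay above 0 and the rest below. SCN2A was 10.68, 10.36 and 10.73 in control and 10.79, 10.37 and 10.46 in treated retinas, and its pairs pointed both ways. Its log2 fold change was −0.050 (SE 0.11, 95% interval −0.31 to 0.20, adjusted p = 0.938 from limma). SCN3A stood at 0.096, SCN9A at −0.056 and SCN8A at −0.26. The 95% intervals of SCN8A (−0.93 to 0.42) and SCN9A (−1.03 to 0.92) were wide. The second probe set of SCN8A had a log2 fold change of −0.47 and that of SCN2A one of −0.067. SCN3A and SCN2A are direct neighbours in the gene order of the macaque assembly T2T-MMU8v2.0, as are SCN1A and SCN9A. Other genes lie between these pairs, and another gene between SCN9A and SCN7A, and no position is given, since the array's own build was not used. Of the 5 genes of this cluster, SCN1A alone passed at an unadjusted p under 0.05, and SCN7A stood at 0.0051.

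Beta subunits of sodium channels are single-pass membrane proteins that adjust gating and cell adhesion, and SCN3B was the 1 measured here. Its log2 signal was 10.11, 9.44 and 10.11 in control and 10.17, 9.28 and 10.01 in treated retinas. Both retinas of replicate 2 were below the other 4, and the treated minus control difference was −0.066 (SE 0.11, 95% interval −0.32 to 0.19). The other probe sets of SCN3B stood at −0.0018 and −0.30.

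**Figure D3:**
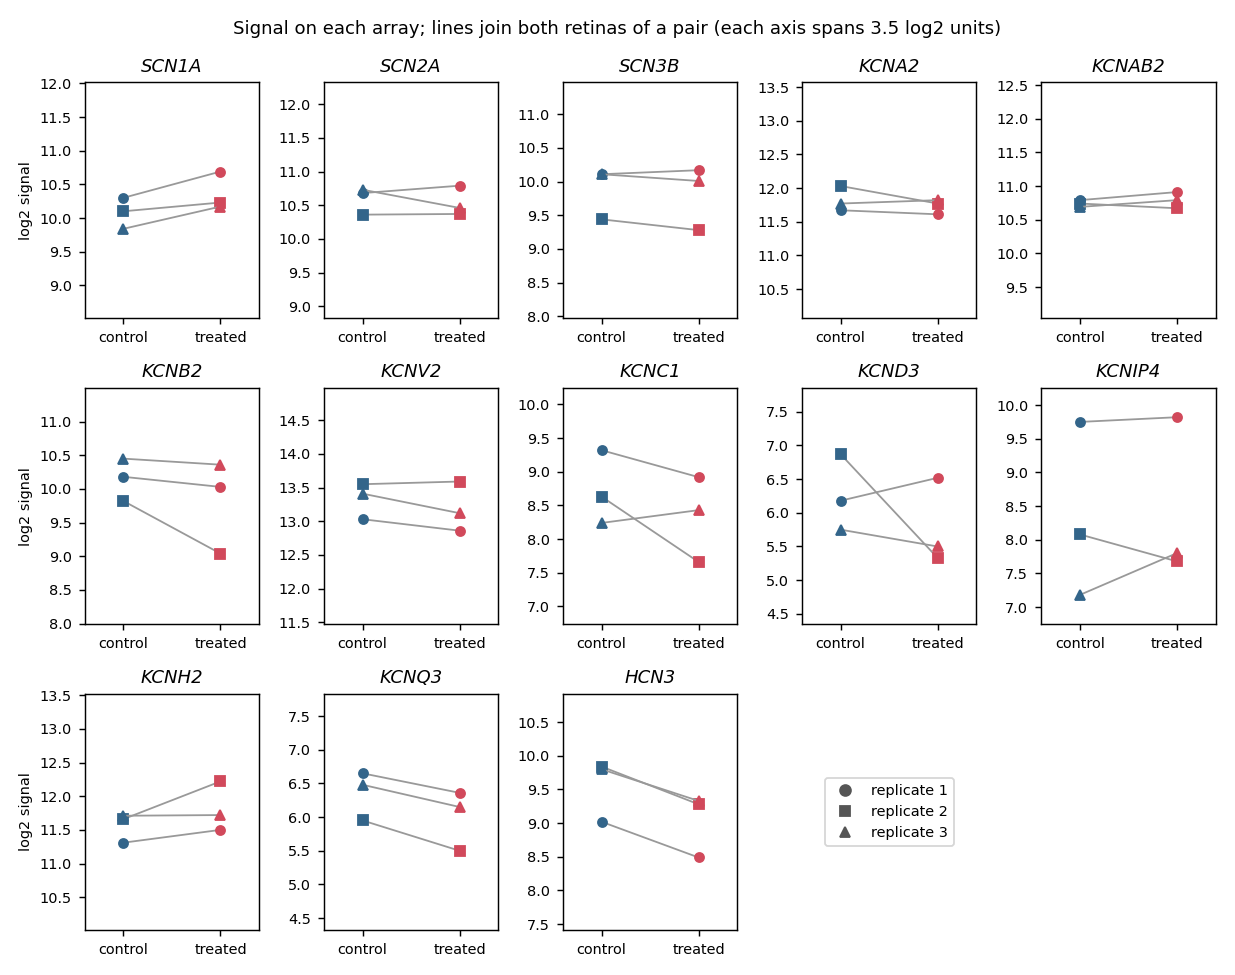
Log2 signal (y axis) of 13 channel genes in control and treated retinas (x axis), with a line for each of the 3 pairs and a symbol for each replicate. The lines of HCN3, KCNQ3 and KCNB2 slope down and those of SCN1A and KCNH2 slope up in all 3 pairs, while in KCNIP4 both retinas of replicate 1 stand far above the other 4.

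Potassium channels of the Shaker family include KCNA1 and KCNA2, which repolarize axons beside the nodes, KCNA3, a delayed rectifier also known from lymphocytes, and KCNA4, which carries a fast inactivating current. KCNA2 was 11.67, 12.03 and 11.77 in control and 11.61, 11.77 and 11.82 in treated retinas. The treated and control values of KCNA2 were interleaved, and the log2 fold change was −0.088 (SE 0.10, 95% interval −0.31 to 0.14). A second probe set of KCNA2, with a mean signal of 4.58, gave 0.33. KCNA3 stood at −0.25 (SE 0.13, adjusted p = 0.752) with all 3 pairs below 0, and its second probe set at −0.13. KCNA1 stood at −0.31, of which the pair of replicate 1 made −0.85, and KCNA4 at 0.15. KCNA3 and KCNA2 are direct neighbours in the gene order. Genes of blood cells, in which KCNA3 is also expressed, were above 0 in 6 of 6 measured, where 44.5% of named genes were below 0. Their summed linear signal was 2376 to 3927 in control and 4777 to 12661 in treated retinas. That sum was mostly LYZ, lysozyme, at 11.63, 11.30 and 10.80 in control and 13.50, 12.17 and 11.87 in treated retinas (log2). The B cell gene MS4A1 was lower in 2 of its 3 pairs and the hemoglobin gene HBB in 1 of 3. The part of the blood cell genes in the value of KCNA3 was not tested.

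The cytoplasmic beta subunits KCNAB1 and KCNAB2 bind the alpha subunits of this family and are related to oxidoreductases. KCNAB2 was 10.79, 10.74 and 10.69 in control and 10.91, 10.67 and 10.79 in treated retinas. These 6 values spanned a narrow range, and the log2 fold change was 0.051 (SE 0.10, 95% interval −0.17 to 0.28). KCNAB1 stood at 0.047 (SE 0.12, higher in 3 of 3 pairs), while its second probe set gave −0.14. The other probe sets of KCNAB2 stood at 0.17, 0.073 and −0.22.

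KCNV2 is an electrically silent subunit of photoreceptors that joins delayed rectifier subunits, and its loss causes a cone dystrophy. The signal of KCNV2 was 13.03, 13.55 and 13.41 in control and 12.86, 13.59 and 13.12 in treated retinas. Both retinas of replicate 2 were above the other 4, and the log2 fold change was −0.14 (SE 0.10, 95% interval −0.37 to 0.09, adjusted p = 0.786 from limma). KCNB2, a pore-forming delayed rectifier, was 10.18, 9.82 and 10.45 in control and 10.03, 9.04 and 10.36 in treated retinas. The treated retina was lower in 3 of 3 pairs, mostly by replicate 2, whose difference was −0.78 beside −0.15 and −0.08. The log2 fold change of KCNB2 was −0.34 (SE 0.15, unadjusted p = 0.0615, adjusted p = 0.751 from limma), and it was −0.12 without replicate 2. Its second probe set gave −0.35.

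KCNC1 and KCNC4 belong to the Shaw family, whose fast channels allow high firing rates. KCNC1 was 9.32, 8.63 and 8.24 in control and 8.92, 7.66 and 8.43 in treated retinas. Replicates 1 and 2 were lower and replicate 3 higher on the treated side, and the log2 fold change was −0.39 (SE 0.23, 95% interval −0.92 to 0.13). KCNC4 stood at 0.055 (SE 0.17) by its brightest probe set and at −0.030 and −0.31 by the others.

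KCND2 and KCND3 carry the transient A-type current at subthreshold voltages, and the calcium-binding proteins KCNIP1, KCNIP3 and KCNIP4 bind them and raise their surface expression. KCND3 was 6.18, 6.87 and 5.75 in control and 6.52, 5.33 and 5.50 in treated retinas. The difference had no common direction in the pairs (0.35, −1.54 and −0.24), and the log2 fold change was −0.48 (SE 0.50). KCND2 stood at 0.21 (SE 0.61) near the lower end of the signals. KCNIP4 was 9.75, 8.08 and 7.18 in control and 9.82, 7.68 and 7.80 in treated retinas, which gave a difference of 0.093 (SE 0.22, 95% interval −0.41 to 0.60). KCNIP1 stood at 0.22 (SE 0.41). KCNIP3, also known as a calcium-dependent transcriptional repressor, had the lowest log2 fold change of the 25 genes, −1.12 (SE 0.61, adjusted p = 0.752 from limma). Its signal was 7.34, 5.79 and 7.48 in control and 7.63, 2.85 and 6.76 in treated retinas. The treated array of replicate 2 stood far below the other 5, and without that replicate the log2 fold change was −0.22. The other probe sets of KCNIP3 gave 0.54 and −1.09.

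KCNH2, the ERG channel, KCNQ3, a subunit of the muscarine-sensitive M current, and KCNMA1, the large-conductance channel gated by calcium and voltage, stabilize the resting potential or repolarize the cell. KCNH2 was 11.31, 11.66 and 11.71 in control and 11.50, 12.22 and 11.72 in treated retinas. The treated retina was higher in 3 of 3 pairs, though in replicate 3 by 0.01, and the log2 fold change was 0.25 (SE 0.12, unadjusted p = 0.0701, adjusted p = 0.751 from limma). The other probe sets of KCNH2 pointed the other way, at −0.12 and −0.41, the latter with a mean signal of 2.88. KCNQ3 was 6.65, 5.95 and 6.48 in control and 6.36, 5.50 and 6.15 in treated retinas. Its 3 pairs agreed closely, at −0.28, −0.45 and −0.33, which gave an unadjusted p = 0.0193 in the methods' t-test on the pairs. With the spread that limma assigns to probe sets of such low signal, the SE of KCNQ3 was 0.39 for a log2 fold change of −0.36 (unadjusted p = 0.385). KCNMA1 stood at −0.078 (SE 0.15), and its other probe sets at −0.23 and −0.33.

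Values varied between animals as well as between the treated and control sides. The mean of both retinas of a pair varied over the 3 animals by a median range of 0.62 across the 25 genes, where the median size of the treated minus control difference was 0.21. In all 25 genes the range over animals was the larger value, as it was in 85.9% of all probe sets and 86.6% of named genes. A range over 3 values tends to be larger than a mean of differences by construction, so the animals were also tested directly. In a moderated F-test of the replicate numbers given treatment (limma), a test added after the data were seen, 10 of 25 genes passed at an adjusted p under 0.05, beside 13.4% of all probe sets and 16.3% of named genes. These were SCN8A, SCN3B, KCNA3, KCNAB1, KCNB2, KCNV2, KCND2, KCNIP3, KCNIP4 and HCN3. KCNIP4 had the smallest p (adjusted p = 0.00432), with pair means of 9.79, 7.88 and 7.49 for replicates 1, 2 and 3. KCNA3 followed (adjusted p = 0.00986), with 9.52, 8.35 and 9.12. Without replicate 1, 0 of 25 passed, and 9 and 11 passed without replicates 2 and 3. Without a trend in the variance prior 0 passed as well. The labels give only a replicate number, so the animal and any handling shared by its 2 arrays cannot be told apart.

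**Figure D4:**
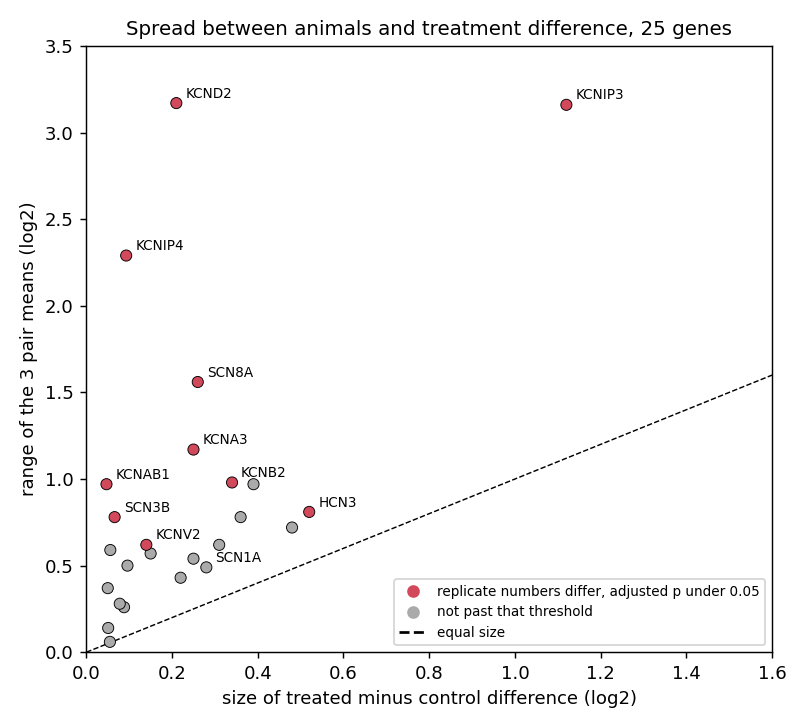
For each of the 25 channel genes the x axis gives the size of the treated minus control difference and the y axis the range of the 3 pair means, both in log2 signal. All points lie above the dashed line of equal size, and the 10 red points are genes whose replicate numbers differed at an adjusted p under 0.05.

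Which animal stood apart differed from gene to gene. In 20 of 25 genes both retinas of 1 animal lay above or below all 4 other retinas, and 57.5% of all probe sets and 62.2% of named genes did so. Replicate 1 was the one above in 5 genes (SCN1A, SCN8A, KCNC1, KCNIP4 and KCNMA1) and below in 4 (KCNA1, KCNA2, KCNH2 and HCN3), against 14.0% and 8.17% of all probe sets and 10.5% and 13.3% of named genes. Replicate 2 was below in 6 genes (SCN2A, SCN3B, KCNA3, KCND2, KCNIP3 and KCNQ3), where 9.77% of all probe sets and 6.69% of named genes were, and above in KCNV2 alone. Replicate 3 was below in 3 genes (SCN3A, KCNA4 and KCNAB1) and above in KCNB2. For replicate 3, and for replicate 2 above, the shares over all probe sets and named genes were not counted.

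Several genes had more than 1 probe set, which gives a check of the fold changes within the same arrays. Of the 13 such genes, 6 (KCNA2, KCNAB1, KCNAB2, KCNC4, KCNH2 and KCNIP3) had another probe set with the opposite sign or more than 0.5 away, 8 probe sets in all of 20. The brightest probe sets of KCNA2, KCNAB1, KCNAB2 and KCNC4 had log2 fold changes under 0.1 in size, whereas in KCNH2 and KCNIP3 the disagreement concerned larger values.

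Of a further 47 genes of these channel families and their auxiliary subunits, 29 were measured, 12 of them with a mean signal under 5. By their brightest probe sets, 0 of these 29 were higher and 1 was lower at an unadjusted p under 0.05, and 0 passed after adjustment. Of all probe sets 2.97% and 3.77% did so at the unadjusted threshold, and of named genes 5.02% and 3.01%. Their median log2 fold change was −0.063, with 13 above and 16 below 0. The lower gene was KCNH8, a voltage-gated potassium channel of the ELK family. Its log2 signal was 10.12, 10.98 and 10.57 in control and 9.63, 10.48 and 9.88 in treated retinas. The treated retina was lower in each pair, by a mean log2 difference of −0.56 (SE 0.10, unadjusted p = 7.65e-04, adjusted p = 0.231 from limma), and the groups overlapped. The unadjusted p of KCNH8 was 0.091 without the pairing and at most 0.0308 in the other alternatives. KCND1, another A-type subunit, stood at 0.97 (SE 0.47, adjusted p = 0.752) with a mean signal of 5.86. DPP10, an auxiliary protein of A-type channels, stood at 0.22 (SE 0.12, adjusted p = 0.753). Among dimmer probe sets, 1 of KCNH5 stood at −2.17 (unadjusted p = 0.0233, adjusted p = 0.716, limma), where its brightest gave −0.20. In KCNH6 a dimmer one stood at −1.26 (unadjusted p = 0.0306, adjusted p = 0.730, limma), where the brightest gave −0.59.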

How the data were processed

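The authors scanned 1 Affymetrix array per retina and normalized it with the MAS5 algorithm in GeneSpring, which scales each array by itself. The deposited values are log2 signals of 52024 probe sets, with signals below 1 set to 1. No further normalization or filter was applied.

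Gene symbols came from the annotation of the array platform and were brought up to date through Entrez identifiers, which the reference table held for 98.6% of the probe sets with 1 symbol. Treated minus control differences were fitted for all probe sets in a linear model that blocked on replicate number (limma 3.58.1, run in R 4.3.3, with trended eBayes). Benjamini-Hochberg adjustment covered all 52024. The methods' paired t-test was run on the same values. The methods describe both retinas of each monkey, while the labels give only the replicate number. Deviations from the group means correlated at 0.357, 0.137 and 0.161 between arrays of the same number. Between arrays of different numbers the correlations ran from −0.243 to 0.104. The fit was tested on simulated data.

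Every measured member is described. Values on every array are given for members at an unadjusted p under 0.05, those of 1 direction in 3 of 3 pairs with a log2 fold change of at least 0.3 in size, and the brightest member of each role, and KCNIP3 was added after its values were seen. Of the other channel genes, those at an unadjusted p under 0.05 and the 3 with the largest moderated statistic are named. Other probe sets are noted where they differ in sign or by over 0.5. The members and lists were chosen with earlier results of these data known. Marker lists covered ganglion cells, rods, cones, bipolar, amacrine and horizontal cells, Müller glia, astrocytes, microglia, blood, pigment epithelium, endothelium with pericytes, oligodendrocytes and skeletal muscle. Alternatives were another test, normalization, centring, filter (mean log2 signal under 5), pseudocount (32), probe set rule, no pairing, and each replicate left out. Python 3.11.15 and matplotlib 3.10.9 made the tables and figures.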

Additional observations from a re-analysis of the deposited data

How the results depend on the processing

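The number of channel genes at an adjusted p under 0.05 was 0 in limma and under every alternative run. The SE of the 25 genes ran from 0.10 to 0.61 on the log2 scale, highest in KCND2 and KCNIP3. The paired fit gave 2 channel genes at an unadjusted p under 0.05, while the fit with no replicate block gave 0, limma without a trend in the variance prior gave 1, and leaving out each replicate gave 2 to 4 (4 without replicate 3). For the other channel genes, where the paired fit gave 1, the fit without the pairing gave 0, the methods' t-test 2, the prior without trend 3, the mean of all probe sets of a gene (chosen after seeing the data) 4, and between 1 and 3 genes passed with a replicate left out (3 without replicate 2). Over all probe sets, the adjusted count was 58 in the paired fit, 0 without the pairing, by the methods' t-test and without trend, and 17 to 222 with each replicate left out (17, 222 and 135 for replicates 1, 2 and 3 in turn). The unadjusted count over the 52024 probe sets was 3506 in the paired fit and 1275 without the pairing. It was 2891 by the methods' t-test, 2889 without trend, and 2210, 3808 and 4868 without replicates 1, 2 and 3. With the mean of all probe sets of a gene, 651 of 14132 genes were higher and 497 were lower at that threshold. The median of the channel genes was 0.031 with arrays centred on their medians and −0.10 to −0.017 with a replicate left out. The number of channel genes above 0 lay between 8 and 15. The replicate numbers differed in 10 channel genes, in 0 without trend, and in 0 to 11 with a replicate left out. Of the 25 genes, 14 kept the sign of their log2 fold change in all alternatives that tested them and 11 did not (KCND2 was tested in 10, as the filter on dim probe sets removed it). HCN3 kept an unadjusted p under 0.05 in every alternative but the one without the pairing, and SCN1A lost it in 5 of 11 (without the pairing, by the methods' t-test, without trend, and without replicates 1 and 3). The causes were not tested.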

Other observations

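Genes of the axon initial segment and of channel anchoring were also listed, and 14 of 16 such genes were measured. By their brightest probe sets, 3 were lower in treated retinas and 0 were higher at an unadjusted p under 0.05. Of all probe sets 3.77% and 2.97% were, and of named genes 3.01% and 5.02%. After adjustment 0 of the 14 passed (smallest adjusted p = 0.394, limma, paired). The lower genes, named after their values were seen, were ANK3, SPTBN4 and CNTNAP2. By the methods' t-test the unadjusted p was 0.207 for ANK3, 0.0234 for SPTBN4 and 0.0212 for CNTNAP2. ANK3 encodes ankyrin-G, the scaffold that recruits sodium channels to the initial segment, and its log2 signal was 13.10 ± 0.13 (SD, n = 3) in control and 12.81 ± 0.15 (SD, n = 3) in treated retinas. The groups of this brightest ANK3 probe set did not overlap (treated lower in 3.53% of all probe sets), its log2 fold change was −0.30 (SE 0.12, adjusted p = 0.734 from limma) with pairs of −0.14, −0.62 and −0.13, and its other 3 probe sets stood at −0.44, −0.32 and −0.79. SPTBN4, the spectrin that links ankyrin-G to actin, stood at −0.26 (SE 0.09, adjusted p = 0.723) with all 3 pairs below 0, and its other probe sets at −0.70, −0.52 and −0.034. CNTNAP2, which clusters axonal potassium channels beside the nodes, stood at −0.42 (SE 0.09, adjusted p = 0.394) with all 3 pairs below 0, and its other probe sets ranged from −0.26 to 0.44.

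The marker lists of cell types that could contribute to a retina sample gave these values. Medians of the log2 fold change were 0.26 for ganglion cells, −0.17 for rods, −0.041 for cones, 0.098 for bipolar cells, −0.29 for amacrine cells, −0.17 for horizontal cells and −0.064 for Müller glia. They were 0.17 for astrocytes, 0.44 for microglia, 0.92 for blood cells, −0.43 for pigment epithelium, −0.15 for endothelium and pericytes, −0.26 for oligodendrocytes and −1.48 for skeletal muscle. The last 2 lists had 3 genes each, with mean signals of 5.23 to 5.61 in oligodendrocytes. In skeletal muscle 2 genes had a mean signal under 5, where signals scatter widely, and the other, CKM, had pairs of −0.42, −4.60 and −0.21. In these lists 1 gene passed after adjustment, the astrocyte gene GFAP, which also marks reactive Müller glia, with a treated minus control difference of 2.14 (SE 0.23, adjusted p = 0.0303, limma).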
